A study of Mus musculus with 12 samples.

Results

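The genes described here are 9 haemoglobin and red cell genes out of the 55487 genes in the count table: the adult α-globins Hba-a1 and Hba-a2, the adult β-globins Hbb-bs and Hbb-bt, the haem pathway genes Alas2, Fech and Slc25a37, the membrane anion exchanger Slc4a1 and the glycolytic enzyme Bpgm. They were taken by gene symbol. The group was put together because Hba-a1 and Slc25a37 were lower after hyperoxia in these same lungs, so every difference by exposure in the 9 genes, pooled or within a sex, is given as a description and carries no test. All 9 genes were found and all passed the filter on low counts, with at least 252 counts in every lung.

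RNA-Seq was done on whole lungs of 12 C57BL/6J mice at postnatal day (PND) 21, with 3 lungs in each of 4 groups of sex and exposure. The hyperoxia pups breathed 95% oxygen from PND 1 to PND 5 and were then kept in room air until PND 21, and the controls stayed in room air. All 12 mice, the controls included, were miR30a -/-, a global CRISPR deletion of the whole miR-30a gene, and pups were pooled from several litters before exposure. Wild-type lungs were not analysed here. Per the methods, the right ventricle was perfused with cold PBS before the lungs were frozen, so the blood left in each lung depends on that step, and its yield per lung is not given in the sources used here. The total count per lung ran from 8763033 to 16741694. Mir30a had 0 counts in all 12 lungs. Levels are given as CPM, the counts scaled to a common, normalized library size.

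Red cell precursors make haemoglobin from paired α and β chains, each holding a haem group. Alas2 starts haem synthesis in erythroid cells, Slc25a37 (mitoferrin) brings iron into their mitochondria and Fech puts that iron into the ring to finish haem. Slc4a1 (band 3) exchanges chloride and bicarbonate across the red cell membrane and anchors its skeleton, and Bpgm makes the bisphosphoglycerate that lowers the oxygen affinity of haemoglobin. Young red cells (reticulocytes) still carry much of this RNA, which is lost as they mature, and α-globin has also been described in arteriolar endothelium and alveolar epithelium. In whole lung, fewer cells of a type and less RNA per cell cannot be told apart.

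In mm10, Hba-a1 (ENSMUSG00000069919, chr11:32283511-32284465) and Hba-a2 (ENSMUSG00000069917, chr11:32296489-32297298) lie near each other on the plus strand, and Hbb-bs (ENSMUSG00000052305, chr7:103826534-103828096) and Hbb-bt (ENSMUSG00000073940, chr7:103812524-103813996) on the minus strand. The 250 bases before the RefSeq start are printed for both kinds of globin and for Alas2, because these genes moved together across the lungs below. Sequences are RefSeq's on GRCm38.p6, 5′ to 3′ on the gene's strand, and capitals mark the GATA words AGATAA and AGATAG as well as TGATAA and TGATAG, read on either strand.

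Hba-a1 (chr11:32283422-32283671, plus strand): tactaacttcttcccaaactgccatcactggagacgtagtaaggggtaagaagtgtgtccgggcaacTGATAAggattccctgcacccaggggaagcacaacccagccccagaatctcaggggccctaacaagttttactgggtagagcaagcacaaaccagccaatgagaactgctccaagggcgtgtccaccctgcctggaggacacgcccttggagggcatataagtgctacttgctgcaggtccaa
Hbb-bs (chr7:103827929-103828178, minus strand): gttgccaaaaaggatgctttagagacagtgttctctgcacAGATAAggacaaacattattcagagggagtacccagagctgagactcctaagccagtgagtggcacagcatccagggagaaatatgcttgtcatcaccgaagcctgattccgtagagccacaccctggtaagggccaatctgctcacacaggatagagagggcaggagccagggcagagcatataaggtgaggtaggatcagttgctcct
Hbb-bt (chr7:103813924-103814173, minus strand): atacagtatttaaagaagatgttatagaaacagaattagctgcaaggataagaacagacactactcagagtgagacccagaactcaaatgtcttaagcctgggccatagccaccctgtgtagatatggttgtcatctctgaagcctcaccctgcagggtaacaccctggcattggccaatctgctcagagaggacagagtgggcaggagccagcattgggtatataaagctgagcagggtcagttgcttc
Alas2 (chrX:150547167-150547416, plus strand): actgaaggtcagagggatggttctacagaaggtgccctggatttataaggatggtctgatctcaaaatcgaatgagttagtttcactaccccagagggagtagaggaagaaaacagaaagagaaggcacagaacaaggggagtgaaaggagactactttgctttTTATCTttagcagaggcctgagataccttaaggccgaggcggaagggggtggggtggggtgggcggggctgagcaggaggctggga

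A GATA word stood 183 bases before the start of Hba-a1 and 210 before that of Hbb-bs, and in Alas2 it stood on the opposite strand at 86 bases. Hbb-bt had none of these words in the window, and neither had Bpgm, whose window was searched but is not shown. Such a word was present in 26.5% of the 32851 windows of this length in the RefSeq table, on either strand. ATATAA stood 28 to 31 bases before the start in all 4 globins and was found in 9.10% of all windows. CACCC occurred in the windows of the 4 globins and of Alas2, against 52.0% of all windows, and CCAAT in those of the 4 globins and of Bpgm, against 33.8%. The windows of Hba-a1 and Hba-a2, each taken to 50 bases past the start so that 300 bases were compared, shared an unbroken run of 297 bases, so that of Hba-a2 is not printed. The same comparison of Hbb-bs with Hbb-bt gave a longest shared run of 14 bases.

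The transcripts of each globin pair are also close copies. Of the 50-base words in the annotated Hba-a1 transcripts, 72.3% occur in those of Hba-a2, and 89.3% of the words of Hba-a2 occur in those of Hba-a1. For Hbb-bs and Hbb-bt these shares were 53.2% and 58.3%. How the count software treated reads that fit both copies is not given in the sources used here. The split within each pair is therefore uncertain. The sum of a pair does not rest on that split, but it would lose shared reads if they were dropped.

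Per kilobase of annotated exon and averaged over the 12 lungs, Hbb-bs stood highest at 2666 CPM, followed by Hba-a1 at 2298 CPM. Hbb-bt was at 259 CPM per kilobase and Hba-a2 at 234. Alas2 followed at 88.2, Slc4a1 at 30.1, Slc25a37 at 21.5, Bpgm at 16.6 and Fech at 9.22 CPM per kilobase. Most of this order was the same in every lung. The neighbours that changed places were Hbb-bs and Hba-a1, with Hbb-bs above in 11 of 12 lungs, Hbb-bt and Hba-a2, with Hbb-bt above in 9 of 12, and Slc25a37 and Bpgm, with Slc25a37 above in 11 of 12. The 4 globins took 0.486% to 0.745% of all counts in the room air lungs and 0.116% to 0.441% in the hyperoxia lungs. Background reads, estimated from the density of reads on olfactory and vomeronasal receptor genes, would make up on average 0.0603% of the counts of Hbb-bs, 1.76% of those of Alas2 and 14.9% of those of Fech, which has long annotated exons.

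Hba-a1, the main α-globin by count, stood at 2138, 2458 and 3090 CPM in the room air males and at 3685, 2226 and 2752 CPM in the room air females. After hyperoxia it was at 916.5, 745.5 and 1952 CPM in the males and at 441.2, 1072 and 915.1 CPM in the females. All 6 hyperoxia lungs were below all 6 room air lungs, although the highest of them, male 3, came close to the lowest control. The mean was 2725 ± 586 CPM in room air and 1007 ± 510 CPM after hyperoxia (SD, n = 6 each), or 37.0% of the room air level, and the fitted log2 fold change averaged over the sexes was −1.46 (SE 0.29).

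Hba-a2, the second adult α-globin, had 210.1, 215.3 and 269.0 CPM in room air males and 215.0, 173.6 and 227.1 CPM in room air females. Its hyperoxia values were 68.9, 77.6 and 179.8 CPM in males and 36.4, 101.4 and 96.6 CPM in females. Here the groups overlapped through hyperoxia male 3, which stood above room air female 5, while the other 5 hyperoxia lungs were below every control. The hyperoxia mean was 42.8% of the room air mean and the log2 fold change −1.24 (SE 0.23).

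Hbb-bs, the more abundant β-globin, stood at 2334, 2598 and 3355 CPM in room air males and at 3293, 2551 and 2824 CPM in room air females, against 1077, 1084 and 2126 CPM in hyperoxia males and 644.5, 1467 and 1213 CPM in hyperoxia females. The 2 exposures did not overlap, and male 3 was again the highest hyperoxia lung. The hyperoxia mean was 44.9% of that in room air, with a log2 fold change of −1.17 (SE 0.28). Hbb-bt, the other adult β-globin, ran from 209.0 to 322.3 CPM in room air and from 40.9 to 186.2 CPM after hyperoxia, where the mean was 41.6% of the control mean (log2 fold change −1.28, SE 0.23).

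Alas2, the erythroid enzyme that opens the haem pathway, stood at 227.0, 267.8 and 318.9 CPM in room air males, at 365.8, 281.2 and 278.2 CPM in room air females, at 130.4, 107.0 and 206.4 CPM in hyperoxia males and at 83.9, 150.2 and 127.6 CPM in hyperoxia females. The exposures did not overlap, and the log2 fold change was −1.11 (SE 0.19). Slc25a37, the mitochondrial iron importer, stood at 155.8, 181.0 and 195.8 CPM in room air males and at 245.5, 146.7 and 171.3 CPM in room air females, against 81.2, 61.5 and 111.7 CPM in hyperoxia males and 53.2, 75.0 and 78.4 CPM in hyperoxia females. It too had no overlap, with a hyperoxia mean of 42.0% of the room air mean and a log2 fold change of −1.26 (SE 0.18). Fech, the last enzyme of the pathway, differed least among the 9 genes. It ran from 136.0 to 198.7 CPM in room air and from 79.2 to 128.6 CPM after hyperoxia, without overlap, and its log2 fold change was −0.74 (SE 0.16). Its level is also the one with the largest estimated share of background reads.

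Slc4a1, the band 3 anion exchanger, stood at 127.8, 196.7 and 236.0 CPM in room air males, at 256.2, 184.0 and 178.9 CPM in room air females, at 81.4, 85.8 and 150.0 CPM in hyperoxia males and at 52.8, 103.8 and 110.7 CPM in hyperoxia females. It overlapped between the exposures, since hyperoxia male 3 was above room air male 1, and its log2 fold change was −1.02 (SE 0.20). Bpgm, the bisphosphoglycerate enzyme, ran from 62.3 to 104.4 CPM in room air and from 22.04 to 57.67 CPM after hyperoxia with no overlap, and its hyperoxia mean was 50.5% of the control mean (log2 fold change −0.99, SE 0.17).

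Over the 9 genes the median log2 fold change by exposure was −1.17, against 0.031 over all 45828 genes tested. All 6 hyperoxia lungs were below all 6 room air lungs in 7 of the 9 genes, beside 0.12% of all genes tested, and this count was 8 with DESeq2 size factors in place of upper-quartile scaling. Because this contrast chose the genes, nothing is read from these counts. Within the sexes the median was −1.38 in females, from −1.84 for Hba-a1 to −0.91 for Fech, and −0.95 in males, from −1.09 to −0.58. For each of the 9 genes the coefficient of variation over 6 lungs was larger after hyperoxia, at 18.9% to 51.6%, than in room air, at 14.1% to 23.1%. Male 3 was the highest hyperoxia lung for every one of the 9 genes and female 2 the lowest. Without either of them, as with any other lung left out, the median by exposure stayed between −1.37 and −1.03.

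**Figure D1:**
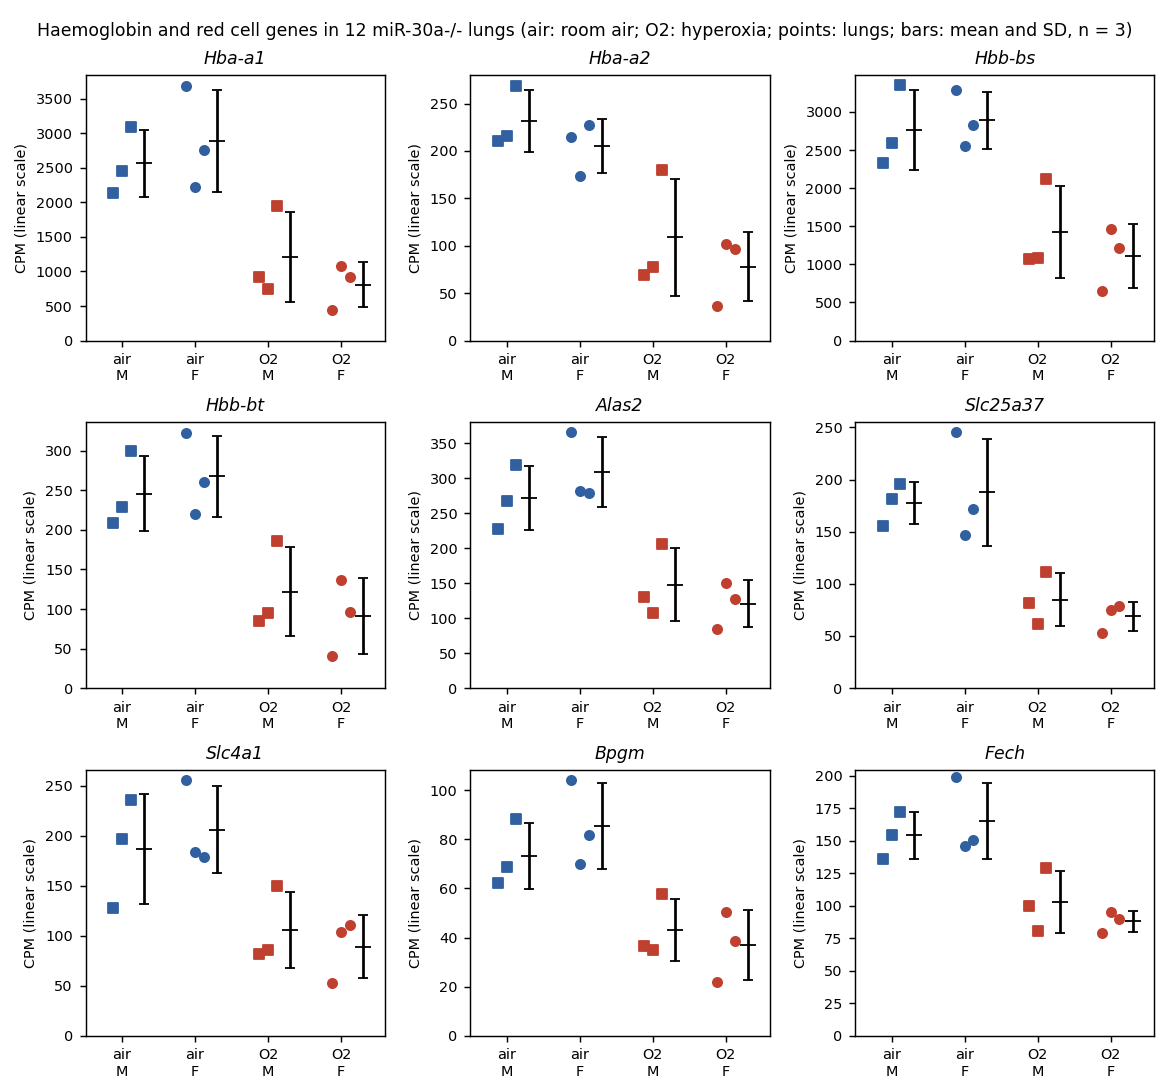
Level of each of the 9 genes in CPM (vertical axes, linear, starting at 0) in each lung, by exposure (air: room air, O2: hyperoxia) and sex (M, F). Points are lungs and black bars the mean and SD of 3 lungs. The hyperoxia lungs sit lower in every panel, and only Hba-a2 and Slc4a1 have a hyperoxia lung, male 3, above the lowest room air lung.

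Within a lung, the ratio of α-globin to β-globin counts does not depend on how libraries are scaled. It can depend on whether reads shared by the copies were counted. It stood at 0.924, 0.946 and 0.919 in room air males, at 1.08, 0.866 and 0.966 in room air females, at 0.848, 0.698 and 0.922 in hyperoxia males and at 0.697, 0.731 and 0.773 in hyperoxia females. The mean was 0.950 ± 0.071 in room air and 0.778 ± 0.090 after hyperoxia (SD, n = 6 each), overlapping in that hyperoxia male 3 was above some of the controls. The ratio of Hba-a1 to Hba-a2 was 12.5 ± 2.4 in room air and 11.0 ± 1.5 after hyperoxia, and that of Hbb-bs to Hbb-bt 11.1 ± 0.48 and 12.4 ± 1.8. Both of these ranges overlapped, and both rest on how reads shared by the copies were assigned.

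The spread among lungs of one group gives a look at the genes that the choice by exposure did not use. When each lung was taken as its deviation from its own group's mean, on the log2 CPM scale, the other 8 genes followed Hba-a1. Pearson's r over the 12 lungs was 0.977 with Hbb-bs (adjusted p = 0.0025), 0.980 with Alas2 (0.0025) and 0.965 with Bpgm (0.0025), in exact permutation tests within groups, two-sided, adjusted over 8 genes. It was 0.950 with Hbb-bt (adjusted p = 0.0031, exact permutation), 0.935 with Hba-a2 (0.0100) and 0.927 with Slc25a37 (0.0025). The value with Hba-a2 also rests on how reads shared by the copies were assigned. The lowest values were 0.914 with Slc4a1 (adjusted p = 0.0071, exact permutation) and 0.889 with Fech (0.0025). Spearman's rho ran from 0.832 for Slc4a1 to 0.979 for Bpgm, with adjusted p from 0.0031 to 0.015 in the same exact permutation test. Without the 2 lungs farthest from the median in Hba-a1, r stayed between 0.848 and 0.961.

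All points come from the same 12 libraries and share their depth and scaling. For comparison, Hba-a1 had a median r of −0.015 with the 14596 other genes that averaged at least 10 CPM, a 95th percentile of 0.411, and 0.0343% of those genes reached the lowest of the 8 values. The within-group SD on the log2 scale was 0.55 for Hba-a1, 0.58 for Hba-a2 and for Hbb-bt, 0.45 for Hbb-bs, 0.37 for Alas2 and 0.23 for Fech, so the globins spread more between lungs of a group than the enzymes of the haem pathway did.

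**Figure D2:**
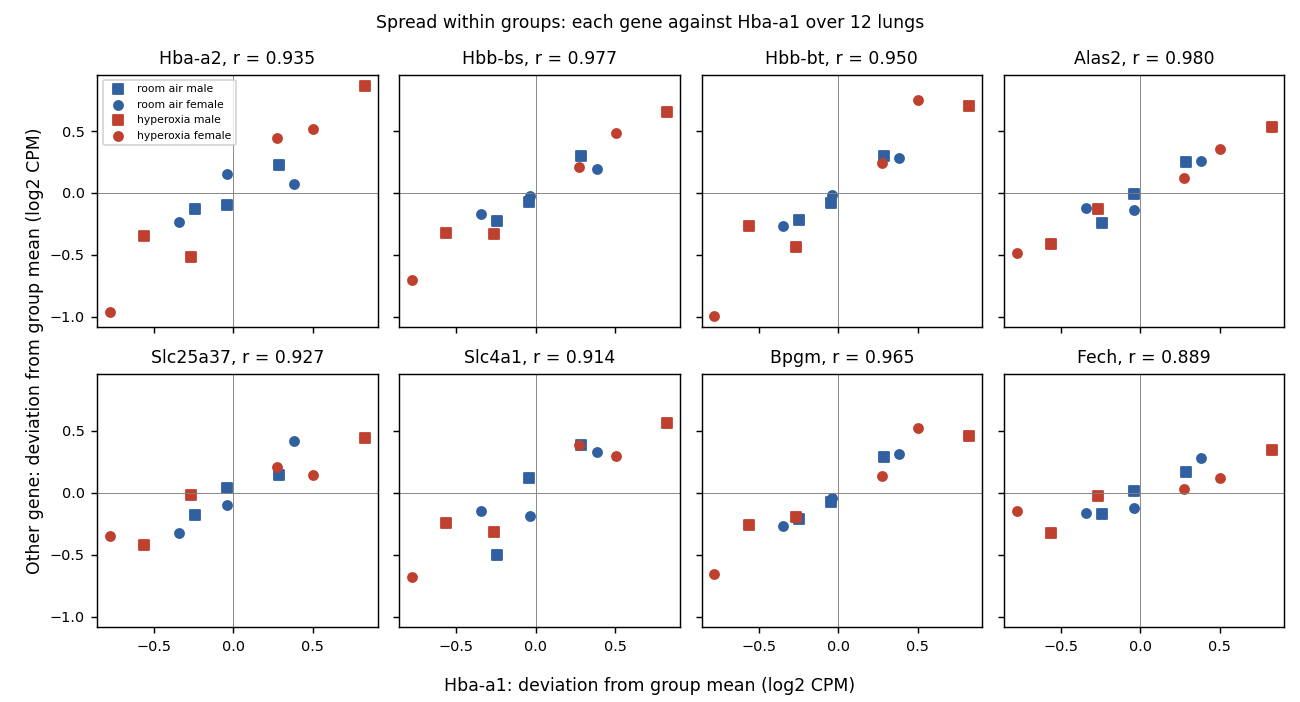
Deviation of each gene from its group mean (vertical axis, log2 CPM) against that of Hba-a1 (horizontal axis, log2 CPM) in the 12 lungs, one panel per gene, coloured by exposure and shaped by sex. The points rise together in all 8 panels, with r from 0.889 for Fech to 0.980 for Alas2, and the hyperoxia lungs reach farther to both sides.

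Sex did not choose these genes, so females and males were compared with a test. None of the 9 genes differed by sex in edgeR's quasi-likelihood test with Benjamini-Hochberg adjustment, where a gene was called if its adjusted p was below 0.05 with more than 1.5-fold change. With the exposures averaged, 0 of 9 were called, beside 1.22% of all genes tested, and 0 of 9 had an unadjusted p under 0.05, as 6.88% of all genes did. The median log2 fold change, females over males, was −0.11, with a range from −0.33 for Hba-a2 to −0.0048 for Bpgm and a smallest adjusted p of 0.929. In room air 0 of 9 were called (0.386% of all genes) and 0 of 9 had an unadjusted p under 0.05 (12.7%), with a median of 0.12. After hyperoxia 0 of 9 were called (0.696% of all genes) and 0 of 9 had an unadjusted p under 0.05 (4.69%), with all 9 below 0, a median of −0.30 and −0.57 (SE 0.41) for Hba-a1. DESeq2's Wald test also called 0 of 9 in each of these contrasts. The medians were small beside what 1 lung could move. With the exposures averaged the median ran from −0.20 without hyperoxia male 2 or room air female 2 to 0.072 without hyperoxia male 3, and in room air from −0.037 without room air female 2 to 0.29 without room air male 5, with 0.024 without room air male 1. Alas2, which lies on the X chromosome (chrX:150547375-150570638), had a log2 fold change by sex of −0.056 (SE 0.19, adjusted p = 0.984).

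Hyperoxia and sex together gave no called gene either. The interaction, which is the change after hyperoxia in females minus that in males, was −0.75 (SE 0.58, adjusted p = 0.608) for Hba-a1 and −0.31 (SE 0.45, adjusted p = 0.785) for Hba-a2. Its median over the 9 genes was −0.43, against 0.12 over all genes, 0 of 9 were called, beside 0% of all genes, and 0 of 9 had an unadjusted p under 0.05 in edgeR, as 8.46% of all genes did. The count over all genes depended on the setting, since with 1 RUVr factor as a covariate 2102 genes were called in the interaction, against 0, and 2274 by sex in room air, against 177, with 0 of 9 in both. With each lung left out in turn the interaction median of the 9 genes ran from −0.68 to −0.14. It was −0.14 without hyperoxia male 3, −0.20 without hyperoxia female 2 and −0.28 without room air female 2, against −0.68 without hyperoxia female 4, where 1 of 9 had an unadjusted p under 0.05. The median by sex after hyperoxia, −0.30 with all lungs, was 0.026 without hyperoxia male 3 and −0.098 without hyperoxia female 2, against −0.51 without hyperoxia female 4 and −0.49 without hyperoxia male 2, where 1 of 9 and 2 of 9 had an unadjusted p under 0.05. None of these settings called any of the 9 genes.

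The summed CPM of the 4 globins averaged 5801 ± 1092 in room air males, 6250 ± 1183 in room air females, 2864 ± 1370 in hyperoxia males and 2087 ± 832 in hyperoxia females (SD, n = 3 each). Females minus males, it differed by −0.17 on the log2 scale (exact permutation within exposures, two-sided, p = 0.595, where 0.005 is the smallest p the 400 arrangements allow). The same exact permutation test gave p = 0.335 for the ratio of Hba-a1 to Hba-a2, 0.765 for that of Hbb-bs to Hbb-bt and 0.56 for that of α to β, and all 4 p-values were 0.765 after adjustment. With 3 lungs per group, these p-values do not show that the sexes are alike.

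**Figure D3:**
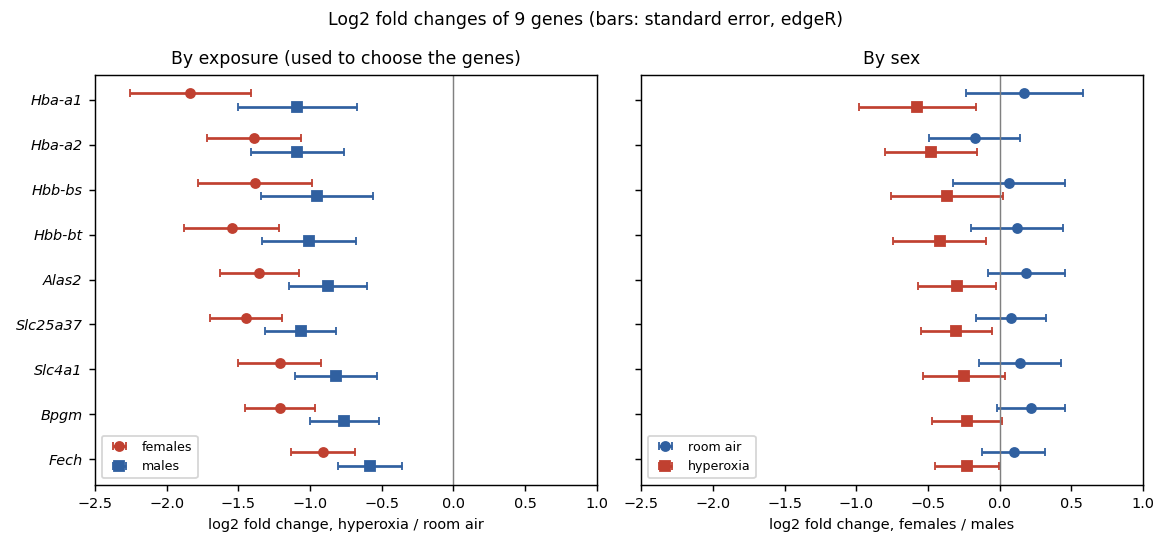
Fitted log2 fold changes of the 9 genes with their standard errors, on the left by exposure within females and males and on the right by sex within room air and hyperoxia. By exposure all values lie between −1.84 and −0.58, whereas by sex they lie between −0.57 and 0.22.

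Other genes of the red cell were taken as 6 lists of 72 genes, chosen by function and with earlier results of these data known. Of 70 genes tested, 4 were lower after hyperoxia and 0 higher, beside 0.0393% of all genes called lower and 0.00218% called higher, and 53 had a log2 fold change below 0, against 44.0% of all genes and 43 of the 59 tested markers of other cell types. These genes come from the same lungs as the 9 and are no separate sample. Their calls by exposure are thus no independent support for the 9. Icam4 had 0 counts in all 12 lungs and Ahsp was not analysed here. Tent5c and Mkrn1 were among the 4 that fell.

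Among 15 tested genes of the membrane and its skeleton the list median was −0.14. The skeleton genes Sptb (β-spectrin) and Ank1 (ankyrin) had log2 fold changes of −0.16 (SE 0.12) and −0.13 (SE 0.12), each with an adjusted p of 0.927 in edgeR's test. The background share was estimated at 25.7% for Sptb and 32.0% for Ank1.

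Of 14 tested genes of red cell enzymes and maturation, 12 had a log2 fold change below 0, and the list median was −0.45. Tent5c, a poly(A) polymerase, ran from 198.1 to 326.7 CPM in room air and from 71.0 to 202.7 CPM after hyperoxia (log2 fold change −1.10, SE 0.20, adjusted p = 0.017, edgeR), and hyperoxia male 3 was above the lowest control. Mkrn1, a ubiquitin ligase, ran from 66.0 to 120.8 CPM in room air and from 40.5 to 62.2 CPM after hyperoxia with no overlap (log2 fold change −0.86, SE 0.14, adjusted p = 0.0090, edgeR). Both calls were lost when room air male 5, room air female 2, hyperoxia female 2 or hyperoxia female 5 was left out, and the 4 calls in the 6 lists then fell to 1. With the log2 share of counts on receptor genes as a covariate all 4 calls were lost, while Slc25a39 and Trim10 were called. The lowest log2 fold change among the 70 genes was −1.23 under that covariate and −1.22 without it.

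Among 10 tested erythroid regulators 0 were called by exposure, with a median log2 fold change of −0.038 and a range from −0.43 for Lmo2 to 0.19 for Gfi1b. Their mean levels ran from 6.26 CPM for Klf1, the erythroid factor that binds CACCC sites, to 69.1 CPM for Ldb1, which bridges factors bound at distant sites. Klf1 stood at 6.02 ± 0.58 CPM in room air and 6.49 ± 0.44 CPM after hyperoxia (SD, n = 6 each), and Lmo2, a partner of Ldb1, at 29.0 ± 4.7 and 21.4 ± 3.1 CPM (adjusted p = 0.439, edgeR). Nfe2, a factor of the globin genes, had a log2 fold change of −0.17 and the highest correlation of the list with the summed globins, 0.698 over the 12 lungs, against −0.268 for Gfi1b, the lowest. Background reads were estimated at 8.76% to 47.3% of the counts over the list and at 30.3% for Klf1. Apart from Gata1, the genes of this list were singled out after their values were seen. Gata1, the X-linked factor that binds GATA words, was the 1 gene of the 70 tested in the 6 lists that was called by sex, beside 1.22% of all genes with the exposures averaged and 0.696% after hyperoxia, so the count is near the background. It ran from 7.48 to 11.0 CPM in room air males and from 6.57 to 8.82 CPM in hyperoxia males, against 11.0 to 14.9 CPM and 11.6 to 16.4 CPM in females. Its log2 fold change, females over males, was 0.71 (SE 0.13, adjusted p = 0.0017, edgeR) with the exposures averaged and 0.88 (SE 0.19, adjusted p = 0.015, edgeR) after hyperoxia, with 29.9% of its counts estimated as background, and by exposure it was −0.047.

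The embryonic and minor globins were listed at low and near level values. Of 6 tested genes 0 were called, with a median log2 fold change of −0.0058, and Hbq1b, Hba-x and Hbq1a, the 3 with the most counts, were at 0.0035, 0.23 and −0.19. They averaged 6.23, 5.42 and 2.24 CPM, with 14.4% to 35.9% of their counts estimated as background. Their correlation with the summed adult globins over the 12 lungs ran from −0.42 to 0.20 in the list.

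In the rest of the haem pathway 0 of 12 genes were called, with 11 below 0 and a median of −0.097. Slc25a39, a mitochondrial carrier, had the lowest value, −0.66 (SE 0.13, adjusted p = 0.053, edgeR), and ran from 53.8 to 86.9 CPM in room air against 36.1 to 51.0 CPM after hyperoxia without overlap. It was called under other settings, with an adjusted p of 2.8e-05 with 1 RUVr factor, 0.0011 in DESeq2's Wald test, 0.034 with at least 10 counts in every library and 0.022 to 0.037 without room air male 1, room air female 6 or hyperoxia male 1. Alas1, the form of the first enzyme used outside the erythroid line, was at −0.26 (SE 0.16) and Ppox at −0.082 (SE 0.12). Of 13 genes of iron and haem turnover 0 were called, with a median of −0.13. Fth1, the ferritin heavy chain, was at −0.26, Tfrc, the transferrin receptor, at −0.32 and Hp, which binds free haemoglobin, at −0.40, each with an adjusted p of 0.927.

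**Figure D4:**
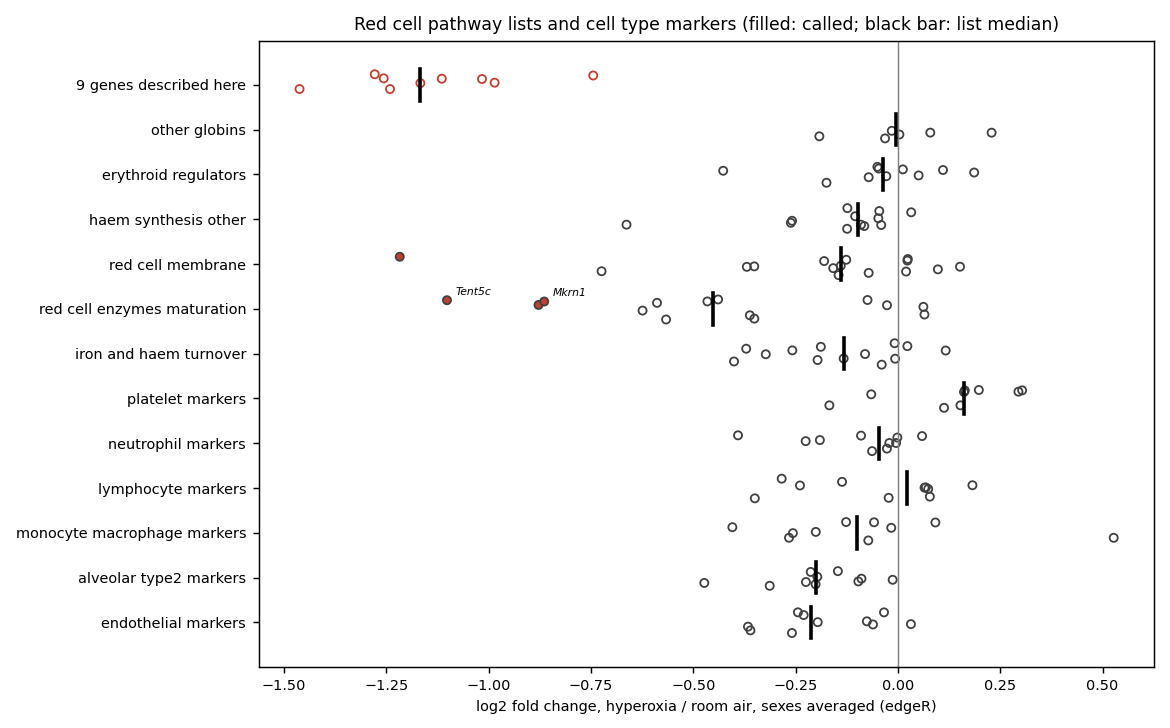
Log2 fold change by exposure (horizontal axis, sexes averaged) of each tested gene in the 9 genes, the 6 red cell lists and 6 lists of cell type markers, with the median of each list as a black bar and called genes filled, with Tent5c and Mkrn1 named. The 9 genes were chosen on this contrast and are drawn without calls. Their median lies at −1.17, and the list medians lie between −0.45 and 0.16.

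Over all genes, the level that ran most like the summed globins over the 12 lungs was that of Tent5c, with a Pearson r of 0.987 on the log2 scale. It was followed by Ube2l6, a ubiquitin-conjugating enzyme, at 0.976, Gda, guanine deaminase, at 0.968, Rsad2, an interferon-induced antiviral enzyme, at 0.962, and Epb41, the skeleton protein 4.1, at 0.951. Prxl2a reached 0.948, Ube2o, an enzyme of ubiquitin transfer active in reticulocytes, 0.945, Mkrn1 0.939 and Cdr2 0.934. These genes were taken for this likeness among 14596 genes of at least 10 CPM, so their values by exposure are a description. The difference between the exposures enters each r, and the 9 haemoglobin and red cell genes themselves had r from 0.963 to 0.999. Within groups, the genes named here for likeness had r with Hba-a1 from 0.837 for Mkrn1 to 0.967 for Tent5c. Gda ran from 75.6 to 130.1 CPM in room air and from 28.3 to 59.4 CPM after hyperoxia, Rsad2 from 58.5 to 112.9 and from 18.4 to 52.3 CPM, and Ube2l6 from 98.5 to 124.9 and from 41.4 to 70.5 CPM. None of these 3 overlapped between the exposures.

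**Figure D5:**
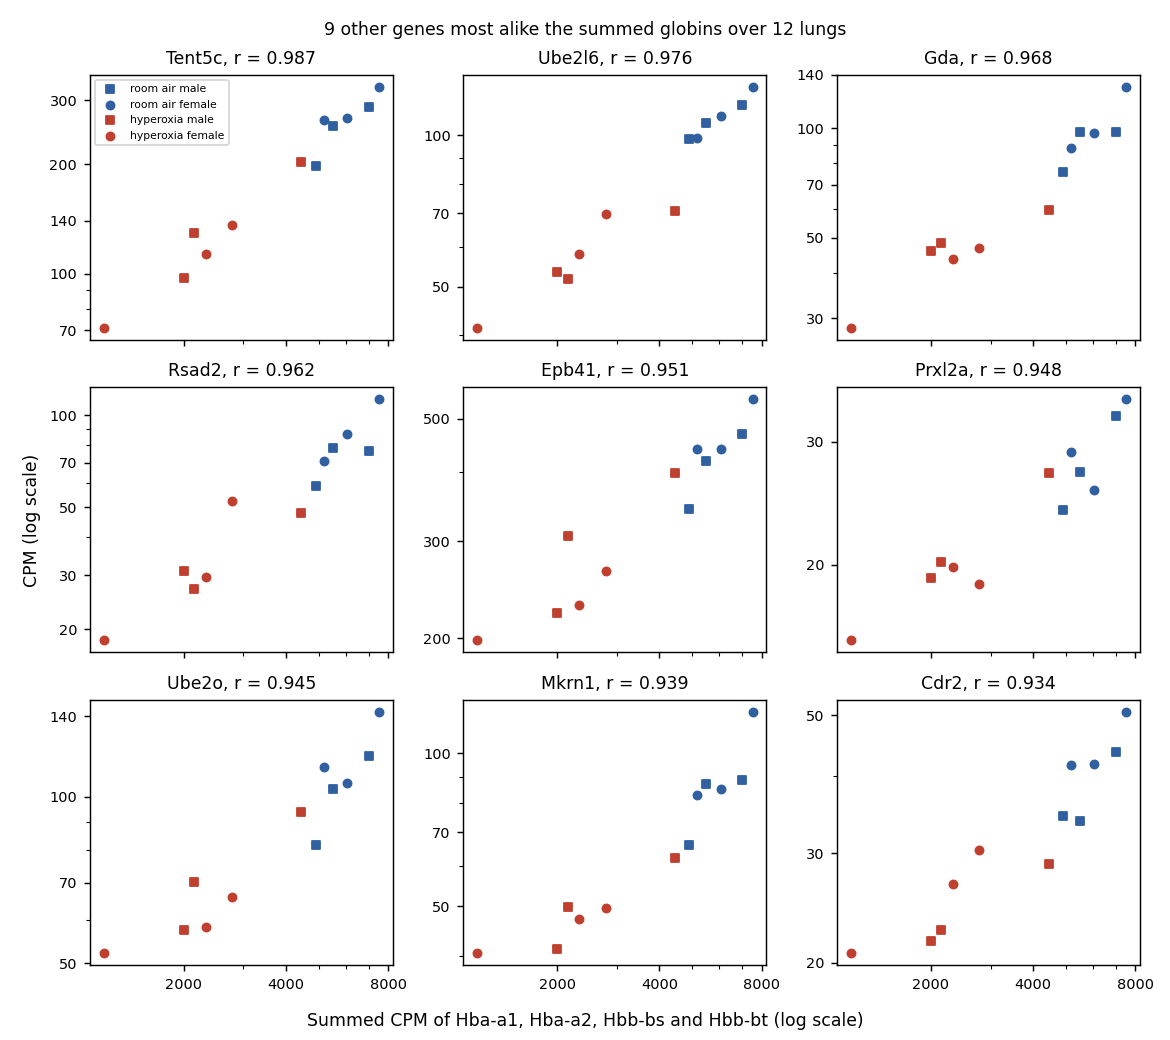
CPM of 9 genes most like the globins (vertical axes, log scale) against the summed CPM of the 4 adult globins (horizontal axis, log scale) in each of the 12 lungs, coloured by exposure and shaped by sex. Pearson's r runs from 0.987 for Tent5c to 0.934 for Cdr2, and most hyperoxia lungs lie at the lower left of each panel.

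Markers of other cells that blood or lung could bring were read beside these genes. Of 59 tested markers of platelets, neutrophils, lymphocytes, monocytes and macrophages, alveolar type II cells and endothelium, 0 were called in either direction. The platelet markers had a median log2 fold change of 0.16, and their summed level ran from 99.3 to 122.1 CPM in room air and from 117.3 to 141.2 CPM after hyperoxia. Of the 9 tested, 2 lay below 0, and all were low, at mean levels of 3.46 to 32.4 CPM with 11.8% to 57.1% of their counts estimated as background. The neutrophil markers had a median of −0.045, those of lymphocytes 0.021 and those of monocytes and macrophages −0.10. The summed neutrophil markers ran from 125.9 to 218.0 CPM in room air and from 117.9 to 173.4 CPM after hyperoxia, those of lymphocytes from 169.5 to 241.2 and from 171.2 to 203.1 CPM, and those of monocytes and macrophages from 318.9 to 598.0 and from 355.8 to 523.7 CPM.

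All 10 alveolar type II markers and 9 of 10 endothelial markers lay below 0, with medians of −0.20 and −0.21. Summed, the former ran from 6489 to 14701 CPM in room air and from 5837 to 12233 CPM after hyperoxia, and the latter from 1629 to 3152 and from 1470 to 2879 CPM. None of the 60 listed markers was at 0 in any lung, and the lowest was Gp1bb with 1 to 7 counts. Counts on the olfactory and vomeronasal receptor genes made up 0.435% to 0.955% of all counts in room air and 0.547% to 1.00% after hyperoxia. This share is a relative gauge of background and leaves out background reads on all other genes. The part of these cell types, of background reads and of the perfusion in the values of the 9 genes was not tested.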

How the data were processed

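Whole-lung RNA-Seq of 12 miR30a -/- mice was analysed, 3 per sex and exposure, with groups taken from the sample labels. Per the labels and methods, the authors used Trim Galore for trimming, STAR for mapping to mm10 and featureCounts for counting, and deposited raw read counts per gene, with tool versions not given in the sources used here. The methods name a QIAseq Stranded Total RNA kit and the labels a NEBNext Ultra II Directional kit with rRNA depletion. No batch or date is given.

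Counts were fitted with edgeR 4.0.16 in R 4.3.3 (robust quasi-likelihood, 4 group means, upper-quartile normalization, filterByExpr, 45828 genes), calling genes with a Benjamini-Hochberg adjusted p below 0.05 and more than 1.5-fold change. The study's ComBat-seq step, which covered wild-type samples, was not repeated. Log2 CPM used a prior count of 2. Positions and exon lengths came from GENCODE mouse release 21, which matched 55227 genes, and promoters from the RefSeq table of GRCm38.p6, in which 6 of the 9 genes were found. A floor of 3 counts lay at 0.191 to 0.327 CPM on the normalized library sizes, which covers counting error only. Where the labels give an animal number they name separate animals. Single values were tested by exact permutation, with scipy 1.17.1 used for ranks only, and matplotlib 3.10.9 drew the plots. The fit was tested on simulated data.

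The 9 genes and all lists were chosen with earlier results of these data known. Named genes were the 9, any called gene of a list or else its 3 most abundant genes, and the 10 genes of at least 10 CPM most like the summed globins. Marker genes are given by list, and some named genes are not reported here. Alternatives were TMM, DESeq2 size factors, RUVr with 1 factor, DESeq2 1.42.0, no filter, at least 10 counts in every library, the receptor share as covariate, only the 6 libraries compared, a prior count of 0.5, the animal number as block and each lung left out. The authors' human blood data and wild-type lungs were not analysed here.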

Additional observations from a re-analysis of the deposited data

How the results depend on the processing

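Under the alternatives, 458 values kept their direction and their side of the threshold or stayed within the spread, 7 moved further and 3 changed sign. Counts of called genes within a 1.5-fold ratio were taken as kept. By sex and in the interaction the 9 genes entered this tally as the number called, so sign changes of their medians are not among the 3. The median log2 fold change of the 9 genes by exposure ran from −1.37 to −1.03 with each lung left out and was −1.22 with the receptor share as covariate. The count of other red cell genes called by exposure, 4, became 7 with DESeq2's Wald test and 2 with the receptor share as covariate, which were Slc25a39 and Trim10. It ran from 1 to 6 with each lung left out. The animal numbers in the labels name separate animals and were not taken as pairs. Deviations of same-numbered lungs correlated between −0.610 and 0.215 over 8 pairs, which cannot show whether such lungs shared a litter. With the number as a replicate block, 2 other red cell genes were called and neither Tent5c nor Mkrn1 was among them, while the median of the 9 genes by exposure was −1.33 and their median by sex turned from −0.11 to 0.063. The summed globin difference by sex ran from −0.30 to 0.016 with each lung left out, turning to 0.012 without hyperoxia male 3 and 0.016 without hyperoxia female 2. The ratio of Hbb-bs to Hbb-bt by sex ran from −0.037 to 0.10 and turned to −0.037 without hyperoxia female 2. The causes were not tested. No alternative called any of the 9 genes by sex or in the interaction.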
